A study of Mus musculus with 8 samples.

Results

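The Hox genes of the mouse prostate are described here as every probe set of the array that the platform annotation pairs with a single gene symbol made of Hox, a letter from a to d and a number. The rule for members uses the name and no measured value, though it was set with earlier results of these data known. They came to 48 probe sets of 33 genes, out of 45037 probe sets and 18193 genes, and RefSeq lists 39 mouse Hox genes. Some Hox genes, such as Hoxa6, Hoxc11 and Hoxc12, had no probe set in the annotation used, and Hoxb8 and Hoxd4 were represented only by probe sets shared with a neighbouring Hox gene. The arrays were made from whole prostate of mice 3 months old, 4 homozygous for a germline Olfm4 deletion (Olfm4 -/-) and 4 wild type (Olfm4 +/+), all untreated and on a background that the labels give as equal parts Black Swiss of the National Institutes of Health and 129/SV. Olfm4 encodes olfactomedin 4, a secreted glycoprotein. The study asked which transcripts differ in the prostate that lacks it, and the comparison below asks this of the Hox genes. The colony was kept by crossing heterozygotes, each array stands for a separate mouse as far as the sources say, and the labels do not say which lobes were taken or which mice were littermates.

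Hox genes encode homeodomain transcription factors that lie in 4 clusters, named a to d, and are numbered by paralog group from 1, at the 3′ end of a cluster, to 13, at the 5′ end. Genes near the 3′ end are transcribed earlier and closer to the head of the embryo, and those near the 5′ end later and closer to the tail, so that the set of Hox genes in use marks the position of a tissue along the body. The prostate buds from the urogenital sinus near the tail end of this series, and the 5′ genes Hoxa10, Hoxa13, Hoxb13 and Hoxd13 are known from mutant mice to shape its lobes or the adjoining accessory glands, while the neighbouring seminal vesicle grows from the Wolffian duct.

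The promoters of 3 neighbours in the Hoxd cluster are shown because Hoxd8 and Hoxd9 moved together from array to array and Hoxd13, at the 5′ end of the same cluster, did not follow them. The sequences are from RefSeq, build GRCm38.p6, on the plus strand, and run from 250 bases before to 50 bases after the annotated start. They lie at chr2:74704365-74704664 for Hoxd8, chr2:74697513-74697812 for Hoxd9 and chr2:74667975-74668274 for Hoxd13. Capitals mark matches on either strand to TATAAA, known as the TATA box, to CCAAT, the CAAT box, and to GGGCGG, the GC box, with overlapping matches run together.
Hoxd8: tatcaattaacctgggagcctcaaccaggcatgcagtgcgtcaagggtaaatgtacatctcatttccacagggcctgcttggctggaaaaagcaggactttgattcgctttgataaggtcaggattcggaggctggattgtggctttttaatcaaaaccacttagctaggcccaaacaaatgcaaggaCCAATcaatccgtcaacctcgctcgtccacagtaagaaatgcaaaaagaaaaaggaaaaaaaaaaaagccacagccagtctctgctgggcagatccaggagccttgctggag
Hoxd9: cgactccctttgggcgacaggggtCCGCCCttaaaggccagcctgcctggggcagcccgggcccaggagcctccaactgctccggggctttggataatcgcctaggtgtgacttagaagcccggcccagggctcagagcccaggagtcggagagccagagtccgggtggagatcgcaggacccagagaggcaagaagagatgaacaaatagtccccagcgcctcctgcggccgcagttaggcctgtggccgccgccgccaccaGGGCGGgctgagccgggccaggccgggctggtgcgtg
Hoxd13: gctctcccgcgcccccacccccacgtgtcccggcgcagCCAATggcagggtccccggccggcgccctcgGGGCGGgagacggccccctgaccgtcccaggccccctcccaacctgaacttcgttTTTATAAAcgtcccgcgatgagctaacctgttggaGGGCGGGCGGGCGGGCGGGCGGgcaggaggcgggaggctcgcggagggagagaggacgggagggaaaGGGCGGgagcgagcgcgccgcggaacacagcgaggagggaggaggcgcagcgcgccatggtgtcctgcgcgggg
The share of G and C was 46.7% for Hoxd8, 68.3% for Hoxd9 and 74.3% for Hoxd13. The Hoxd8 window held a CAAT box, the Hoxd9 window GC boxes, and the Hoxd13 window all 3 of these motifs. The promoter table held 21 promoters for 19 of the 33 Hox genes. Among these 21, CCAAT was present in 57.1%, against 37.4% of all 32851 promoters of the same length, GGGCGG in 38.1% against 35.7%, and TATAAA in 9.52% against 13.6%. TGATTNAT, a form of the site bound by Hox and Pbx proteins together, was present in 9.52% of Hox promoters against 3.22% of all, AGAACA, the half-site of androgen receptor, in 9.52% against 19.0%, and CCAATAAA, a site bound by HOXB13, in 0% against 1.12%. Each share of 9.52% stands for 2 of the 21 promoters, and nothing is read from so few. A match describes the letters in the window and does not show a bound site.

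The values are log2 intensities as the authors normalized them. Array medians lay between 6.03 and 6.09, and correlations between arrays over all probe sets between 0.983 and 0.996. By the labels, knockout arrays 3 and 4 and wild-type arrays 1 and 4 were run on 1 day and the other 4 arrays on another. Olfm4 itself read 3.00 to 3.25 on the knockout arrays and 10.23 to 10.74 on the wild-type arrays, so every array matched its label. Markers of prostate luminal epithelium averaged 13.62 to 13.68 on the knockout arrays and 13.62 to 13.66 on the wild-type arrays, while those of epididymis and vas deferens averaged 4.67 to 5.13 on the knockout arrays and 4.62 to 4.86 on the wild-type arrays. One feature of the tissue touches many results below. The mean of 6 seminal vesicle secretory transcripts (Svs2, Svs3a, Svs4, Svs5, Svs6 and Pate4) was 13.81, 10.04, 9.90 and 9.04 on knockout arrays 1 to 4, and 14.15, 7.88, 9.65 and 9.02 on wild-type arrays 1 to 4. All 6 were highest on knockout array 1 and wild-type array 1. Knockout array 1 also stood apart in other ways, with a mean of 13.14 over 7 smooth muscle markers against 12.69 to 12.71 on the other knockout arrays and 12.69 to 12.85 on the wild-type arrays, and with the lobe product Msmb at 11.09 against at least 14.09 on every other array, while another, Pbsn, read 13.76 there and 13.64 to 14.09 elsewhere. The mean over 6 fibroblast markers was 10.62 on knockout array 1, 10.56 on knockout array 4 and 10.14 and 10.24 on the other knockout arrays, and 10.03 to 10.30 on the wild-type arrays. Both nerve markers measured, S100b and Sox10, were highest on knockout array 1 and wild-type array 1, with a mean of 7.51 against 6.40 to 6.80 on the other knockout arrays, and of 7.48 against 6.68 to 7.28 on the other wild-type arrays. The mean of 5 endothelial markers was likewise highest on these arrays, at 7.61 against 7.17 to 7.29 on the other knockout arrays, and at 7.34 against 7.09 to 7.29 on the other wild-type arrays, though only Kdr of the 5 had this order by itself. Counts over the Hox genes, and the genes it moves most, are therefore also given without knockout array 1 and wild-type array 1, a setting that rests on 3 arrays a genotype. In whole tissue, fewer cells of a type and less RNA per cell cannot be told apart.

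A probe set was taken as above background when its mean over the 8 arrays was over 4.56, the 95th percentile of the means of 43 olfactory receptor probe sets, a family with little expression outside the nose. By this measure 34 of the 48 Hox probe sets, of 23 genes, were above background, which is 70.8% against 70.9% of all probe sets. The genes above background were unevenly spread along the clusters. Of paralog groups 1 to 3, 3 of 7 genes were above background (Hoxa3, Hoxb2 and Hoxb3). Of groups 4 to 8, it was 8 of 12 (Hoxa5, Hoxa7, Hoxb4, Hoxb5, Hoxb6, Hoxc4, Hoxc6 and Hoxd8). Of groups 9 to 13, it was 12 of 14, with Hoxc10 and Hoxc13 as the exceptions. By cluster, 7 of 9 Hoxa genes, 7 of 9 Hoxb genes, 3 of 7 Hoxc genes and 6 of 8 Hoxd genes were above background. Each of the Hoxa, Hoxb and Hoxd genes of groups 9 to 13 that the array measured was above it. In the Hoxc cluster, no measured gene read above 6.09 on any array, whereas the brightest probe sets of Hoxa9, Hoxa10, Hoxb9, Hoxb13, Hoxd8, Hoxd9 and Hoxd13 read 9.79 or more on all 8. Probe sets differ in how strongly they bind, so these levels are set against the background only and give no order among the genes. Hoxd12, at 4.68 to 5.00, and Hoxc5, at 4.30 to 4.60, were the brightest probe sets just inside and just outside the threshold.

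**Figure D1:**
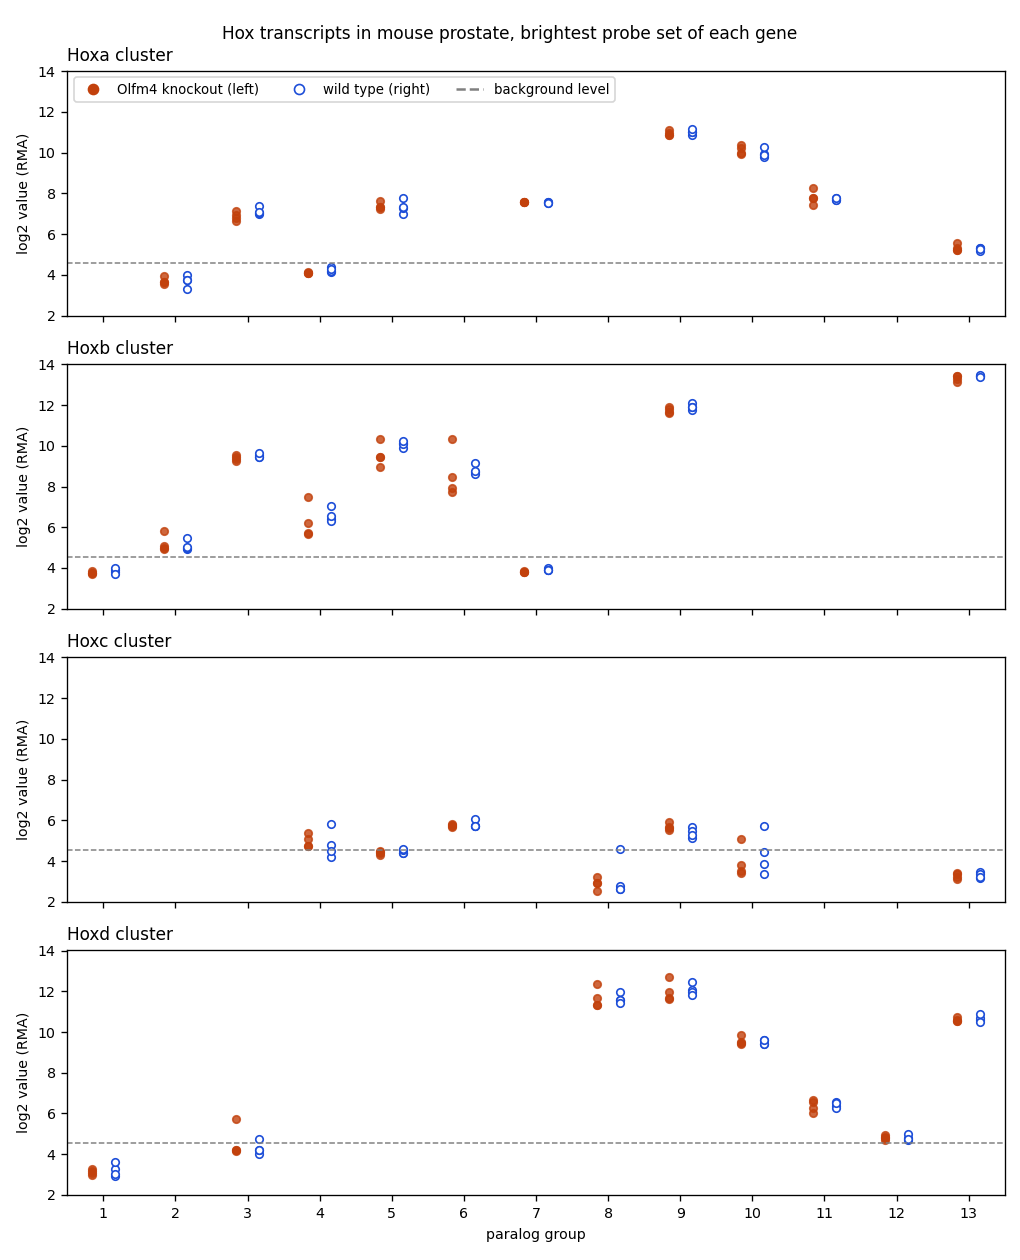
Log2 value of the brightest probe set of each of 33 Hox genes (vertical axis) by paralog group (horizontal axis), a panel for each cluster, with 4 Olfm4 knockout arrays as filled points on the left and 4 wild-type arrays as open points on the right, and the background level of 4.56 dashed. In the Hoxa, Hoxb and Hoxd clusters the genes of groups 9 to 13 lie above the line, and in the Hoxc cluster no point is above 6.09.

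No gene of paralog group 13, the group nearest the 5′ end, passed the test of genotype. Hoxb13, a factor needed for the secretory cells of the ventral lobe in mice, read 13.11, 13.28, 13.41 and 13.41 on knockout arrays 1 to 4, and 13.45, 13.44, 13.48 and 13.37 on wild-type arrays 1 to 4. The groups overlapped, and knockout array 1 was the lowest. The log2 fold change (knockout minus wild type) was -0.13 ± 0.081 (SE, n = 4 each), with a 95% confidence interval of -0.32 to 0.057 and an adjusted p of 0.547 by limma with Benjamini-Hochberg adjustment over all 45037 probe sets, and the 2-sided exact permutation p was 0.143. It was 0.0023 on day 1 and -0.27 on day 2, when knockout array 1 was run, and -0.070 without knockout array 1 and wild-type array 1.
Hoxd13, which with Hoxa13 patterns the genital tubercle and the accessory glands, read 10.59, 10.54, 10.74 and 10.54 on the knockout arrays, and 10.61, 10.69, 10.47 and 10.90 on the wild-type arrays. Its log2 fold change was -0.067 (interval -0.29 to 0.16, adjusted p = 0.817), and a dimmer probe set of the gene gave 0.072. With knockout array 1 and wild-type array 1 left out, the brighter one gave -0.15. Hoxa13 read 5.22, 5.21, 5.56 and 5.34 on the knockout arrays, against 5.32, 5.33, 5.19 and 5.26 on the wild-type arrays, a log2 fold change of 0.058 (interval -0.13 to 0.25, adjusted p = 0.812). Both pairs of groups overlapped. Hoxc13, a gene of hair and nail, stayed below background at 3.37, 3.10, 3.39 and 3.23 on the knockout arrays, and 3.45, 3.16, 3.36 and 3.22 on the wild-type arrays, a log2 fold change of -0.022 (interval -0.25 to 0.20, adjusted p = 0.948). For Hoxa13, Hoxb13 and Hoxd13 the interval of the difference lay within 0.5 of 0 on the log2 scale. This bounds the change in measured value that 4 arrays a genotype could have missed. The measured values of the 3 genes also varied little over the 8 arrays, with a highest minus lowest value of 0.37 to 0.43. Hoxa13, at 5.19 to 5.56, lay close to the background level of 4.56, and Hoxb13 read high, at 13.11 to 13.48. Whether the array shows changes in full at such levels was not tested, so the small range does not by itself show steady expression.

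Over all Hox genes, none of the 48 probe sets passed an adjusted p of 0.05, against 0.111% of all probe sets, and the smallest adjusted p was 0.303 (limma). At an unadjusted p under 0.05, 2 of the 48 were lower in the knockout, which is 4.17% against 7.34% of all probe sets, and 0 were higher, against 5.46%. The genotypes did not overlap for 2 probe sets, Hoxb4 (1451761_at) and Hoxb7, both with all knockout values the lower, against 5.03% of all, and 0 had all knockout values the higher, against 3.69%. These shares were no larger than the background. The median log2 fold change was -0.067 over the 33 Hox genes and -0.015 over all 18193 genes, and the knockout mean was lower for 21 of the 33, against 53.8% of all genes. The 95% confidence intervals lay within 0.5 of 0 for 31 of the 48 probe sets and within 1 for 42. The widest interval, -1.71 to 0.93, belonged to Hoxc10, below background.

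**Figure D2:**
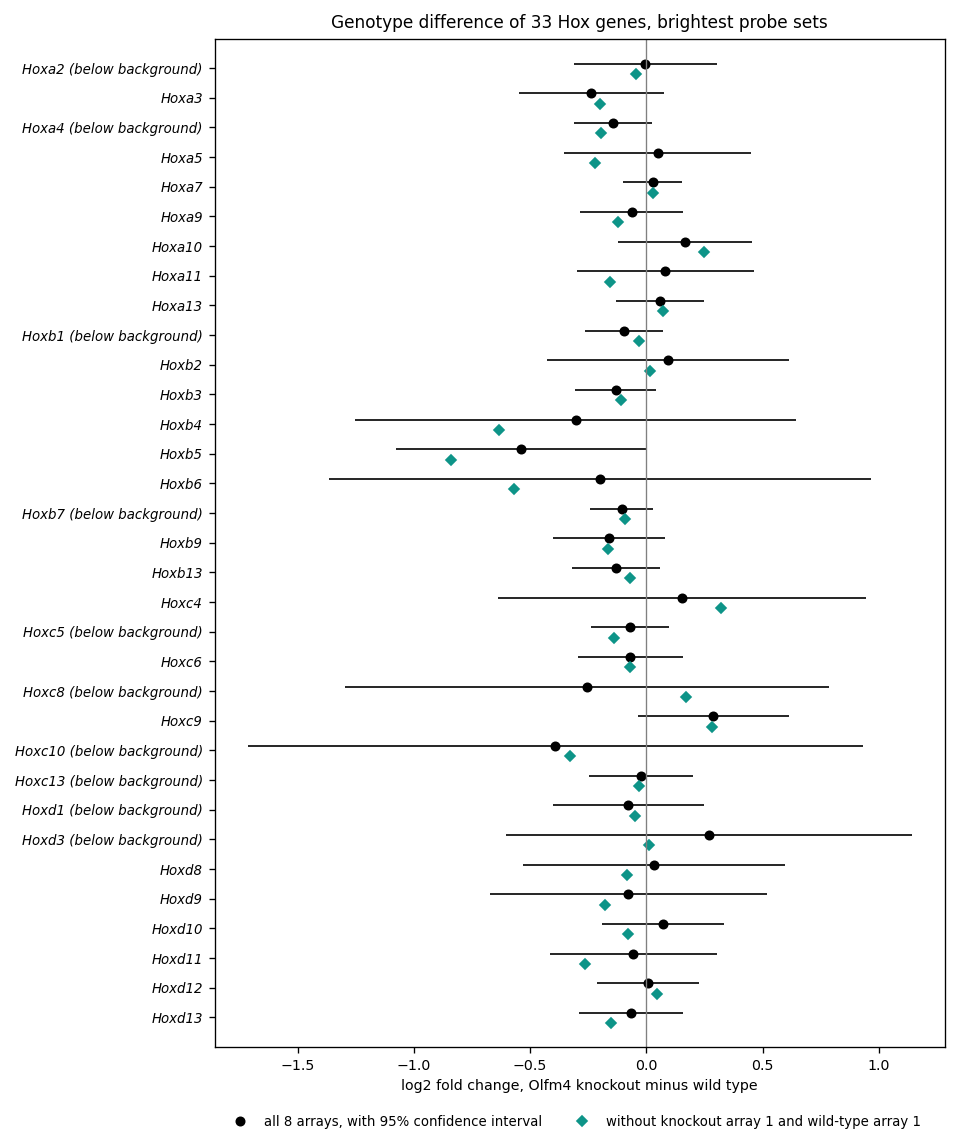
Log2 fold change (knockout minus wild type, horizontal axis) of the brightest probe set of 33 Hox genes (vertical axis), as a black point with its 95% confidence interval over all 8 arrays and as a diamond without knockout array 1 and wild-type array 1. Of all intervals that of Hoxb5 alone does not reach 0, and Hoxb4, Hoxb5 and Hoxb6 have the diamonds farthest to the left.

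The 2 probe sets at an unadjusted p under 0.05 belonged to paralog group 5, and neither passed after adjustment. Hoxb5, which in the embryo acts in trunk mesoderm and the enteric nerve precursors, read 10.33, 9.44, 8.98 and 9.44 on knockout arrays 1 to 4, and 9.92, 10.13, 10.08 and 10.21 on wild-type arrays 1 to 4. Knockout array 1 was the highest of all 8 arrays and the other 3 knockout arrays were below all of the wild-type arrays. The log2 fold change was -0.54 ± 0.23 (SE, n = 4 each, interval -1.08 to -0.0031, unadjusted p = 0.0490, adjusted p = 0.388 by limma), and the 2-sided exact permutation p was 0.143. It was -0.84 ± 0.15 when knockout array 1 and wild-type array 1 were left out, with an adjusted p of 0.193 by limma. It was -0.86 on day 1 and -0.22 on day 2.
Hoxa5, a gene of lung and skeletal patterning, had 2 probe sets. By 1448926_at it read 6.54, 6.42, 6.75 and 6.39 on the knockout arrays, and 6.68, 6.82, 7.08 and 6.96 on the wild-type arrays, where only knockout array 3 and wild-type array 1 crossed. The log2 fold change was -0.36 ± 0.12 (SE, n = 4 each, unadjusted p = 0.0182, adjusted p = 0.303 by limma), and the exact permutation p was 0.0571. It was -0.46 without knockout array 1 and wild-type array 1. The brighter 1443803_x_at read 7.63, 7.36, 7.36 and 7.25 on the knockout arrays, and 6.97, 7.30, 7.34 and 7.78 on the wild-type arrays, a log2 fold change of 0.048 (adjusted p = 0.937). The value of this probe set rested on single arrays, at -0.22 (adjusted p = 0.517) with knockout array 1 and wild-type array 1 left out and 0.23 without wild-type array 4 (adjusted p = 0.356).

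The Hoxb cluster had the largest share of genes with a lower knockout mean, 8 of 9 genes. It was 4 of 9 in the Hoxa cluster, 5 of 7 in the Hoxc cluster and 4 of 8 in the Hoxd cluster, beside 53.8% of all genes. Without knockout array 1 and wild-type array 1 it was 8 of 9 Hoxb, 6 of 9 Hoxa, 4 of 7 Hoxc and 6 of 8 Hoxd genes, 24 of 33 in all. The clusters thus differed less in that setting. The share over all genes was not counted there. The median log2 fold change in that setting was -0.083 over the Hox genes and -0.020 over all genes. These counts carry no test, since neighbours in a cluster share control regions and overlapping transcripts, and the members named in the rest of this account were named after their values had been seen. Hoxb3 read 9.25, 9.44, 9.36 and 9.54 on the knockout arrays, and 9.56, 9.46, 9.45 and 9.65 on the wild-type arrays, a log2 fold change of -0.13 (adjusted p = 0.508). Knockout array 4 alone lay inside the wild-type range. Hoxb4, a regulator of blood stem cells when overexpressed, read 7.47, 5.65, 6.23 and 5.73 by 1460379_at on the knockout arrays, and 7.04, 6.43, 6.29 and 6.54 on the wild-type arrays. Knockout array 1 was again the highest and the other 3 knockout arrays were the lowest. The log2 fold change was -0.30 ± 0.41 over all arrays and -0.64 ± 0.15 (adjusted p = 0.228) on the 6 arrays other than knockout array 1 and wild-type array 1. It was -0.81 on day 1 and 0.20 on day 2, and leaving out 1 array gave -0.77 (without knockout array 1) to -0.042 (without knockout array 2). By 1451761_at, Hoxb4 read 5.07, 4.75, 5.08 and 4.98 on the knockout arrays, and 5.47, 5.09, 5.18 and 5.12 on the wild-type arrays, a difference of -0.24 (adjusted p = 0.391) with no overlap. The exact permutation p of 0.0286 is the smallest that 4 arrays against 4 can give.
Hoxb6 had the widest spread of any Hox probe set. It read 10.35, 8.46, 7.91 and 7.72 on the knockout arrays, and 9.17, 8.69, 8.62 and 8.75 on the wild-type arrays. Its log2 fold change was -0.20 ± 0.50 over all arrays, -0.57 ± 0.18 (adjusted p = 0.291) on the same 6, -1.14 on day 1 and 0.75 on day 2, the day of knockout array 1. Hoxb9 read 11.64, 11.81, 11.92 and 11.63 on the knockout arrays, and 11.74, 12.09, 11.89 and 11.93 on the wild-type arrays, a log2 fold change of -0.16 (adjusted p = 0.565).

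**Figure D3:**
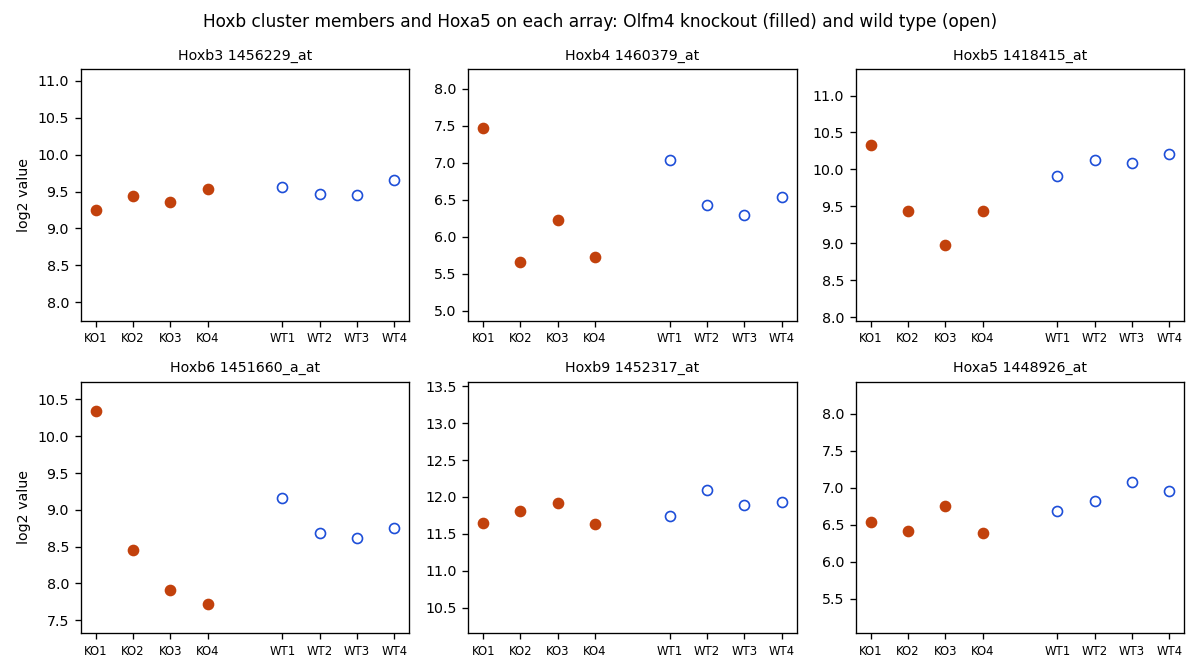
Log2 value (vertical axes) on each array (horizontal axes) of 5 Hoxb genes and of Hoxa5, with Olfm4 knockout arrays filled on the left and wild-type arrays open on the right. Knockout array 1 (KO1) is the highest of the 8 arrays for Hoxb4, Hoxb5 and Hoxb6, and the other 3 knockout arrays are below all 4 wild-type arrays for these genes.

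Without knockout array 1 and wild-type array 1, still none of the 48 Hox probe sets passed an adjusted p of 0.05, against 0.0822% of all probe sets, with a smallest adjusted p of 0.193 (limma). At an unadjusted p under 0.05, 5 were lower in the knockout, 10.4% against 7.76% of all probe sets, and 0 were higher, against 5.49%. These 5 were Hoxa5 (1448926_at), Hoxb3 (1427605_at), Hoxb4 (1460379_at), Hoxb5 and Hoxb6. The brighter Hoxb3 probe set (1456229_at) was not among them, at -0.11 (adjusted p = 0.668 by limma) in this setting. All 3 knockout arrays lay below all 3 wild-type arrays for 8 Hox probe sets, 16.7% against 11.6% of all, and the smallest exact permutation p that 3 against 3 can give is 0.1. Besides Hoxa5, Hoxb5, Hoxb6 and both Hoxb4 probe sets, they were Hoxb7 and both Hoxa4 probe sets, which are below background.

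Several Hox genes differed widely among arrays of one genotype, and some of them were highest where the seminal vesicle transcripts were highest. Among the 34 Hox probe sets above background, 9 were highest on knockout array 1 within the knockout and on wild-type array 1 within the wild type, 26.5% against 8.36% of all probe sets above background. Of these 9, 1 was in paralog groups 1 to 3 (of 6 above background), 6 in groups 4 to 8 (of 13) and 2 in groups 9 to 13 (of 15). For Hoxa7, 1 of the 9, the whole range over 8 arrays was 0.053, and the order within it carries nothing. Both probe sets of Hoxd8 are among the 9. The opposite pattern, with both arrays lowest, was seen for 3 of the 34, and its share over all probe sets was not counted. Hoxd9 read 12.71, 11.67, 11.96 and 11.63 on the knockout arrays, and 12.45, 12.06, 11.97 and 11.81 on the wild-type arrays. Hoxd8, its 3′ neighbour, read 12.35, 11.34, 11.66 and 11.35 on the knockout arrays, and 11.99, 11.57, 11.56 and 11.45 on the wild-type arrays. In both genes knockout array 1 and wild-type array 1 were the 2 highest of all 8, and a second Hoxd8 probe set gave the same order for these arrays, at 9.25 and 8.85 against at most 8.38. Their genotype differences were -0.078 for Hoxd9 (adjusted p = 0.928) and 0.034 for Hoxd8 (adjusted p = 0.970), and without these arrays -0.18 for Hoxd9 and -0.083 for Hoxd8.
By the probe set of their own, some genes were over the background level on these arrays alone. Hoxc10 read 5.07, 3.44, 3.80 and 3.53 on the knockout arrays, and 5.72, 3.38, 4.46 and 3.84 on the wild-type arrays. Hoxd3 read 5.72, 4.15, 4.19 and 4.19 on the knockout arrays, and 4.76, 3.98, 4.21 and 4.21 on the wild-type arrays. For both, knockout array 1 and wild-type array 1 were the only arrays over 4.56. Hoxc8 was over it on wild-type array 1 alone, at 4.62, with 2.53 to 3.22 on the knockout arrays and 2.61 to 2.79 on the other wild-type arrays. Hoxc4, above background in the mean, had the same highest arrays, with 5.39, 4.72, 5.08 and 4.74 on the knockout arrays, and 5.82, 4.22, 4.81 and 4.47 on the wild-type arrays.
Among other transcripts within the clusters, some had the same highest arrays and some did not. Hoxb5os, the antisense transcript at Hoxb5, read 10.59, 8.58, 8.77 and 8.85 on the knockout arrays. It read between 8.56 and 9.42 on the wild-type arrays, highest on wild-type array 1. Hoxb5 itself was lowest among the wild-type arrays on that array, at 9.92. Hoxd3os1, below background, was highest on knockout array 1 by its brighter probe set, at 4.46. Among the wild-type arrays that probe set was highest on array 3, at 4.39, with 4.29 on array 1. The dimmer probe set of Hoxd3os1 had the same highest arrays as Hoxb5os. The probe set shared by Hoxb8 and Hoxb7 read 8.29, 6.66, 6.98 and 7.19 on the knockout arrays, and 7.64, 7.51, 7.00 and 6.99 on the wild-type arrays. The part of seminal vesicle tissue in these values was not tested, nor was that of the nerve and endothelial markers that were highest on the same arrays or of the smooth muscle and fibroblast markers on knockout array 1.

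**Figure D4:**
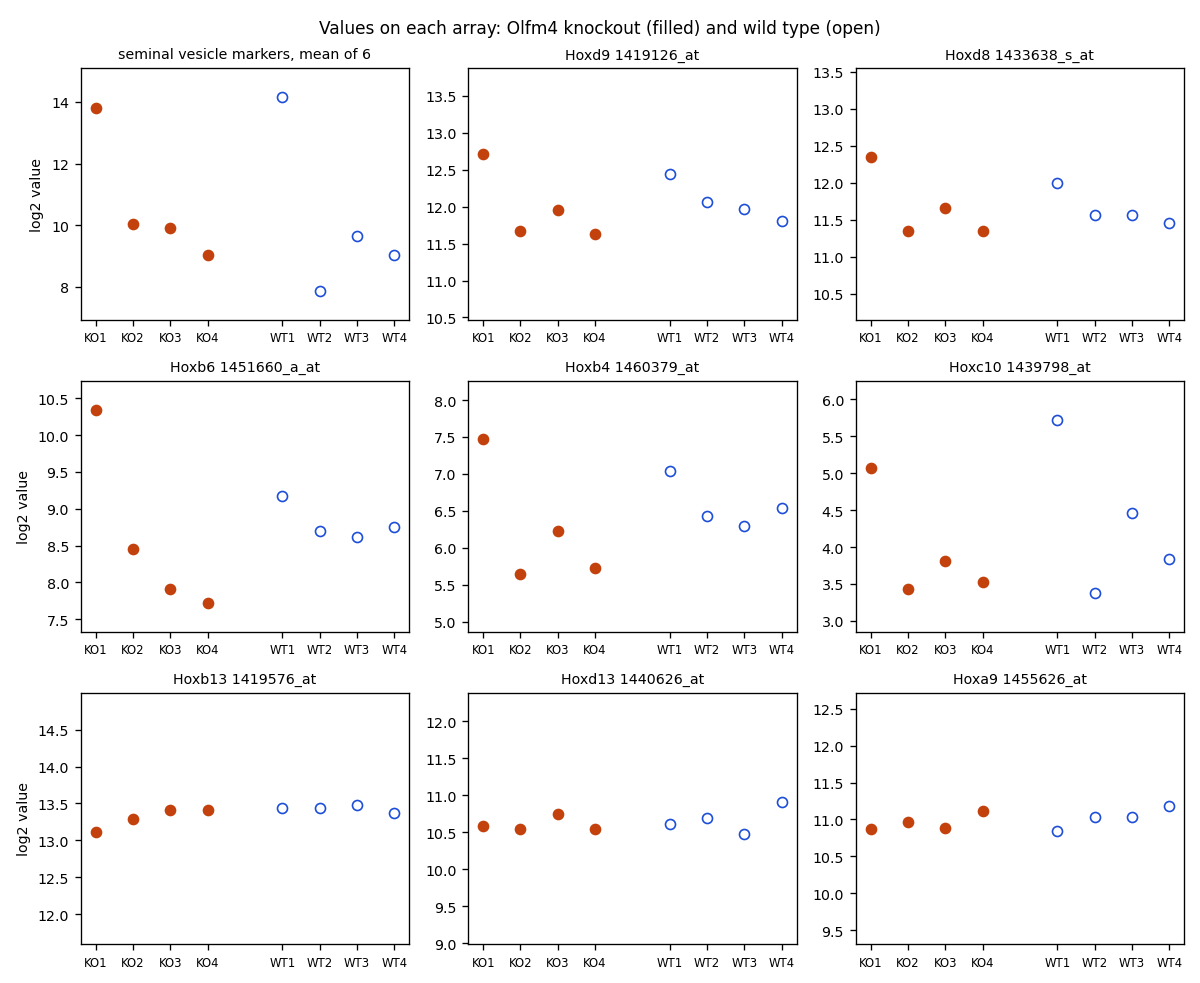
Log2 value (vertical axes) on each array (horizontal axes) of the mean of 6 seminal vesicle markers and of 8 Hox probe sets, with Olfm4 knockout arrays filled on the left and wild-type arrays open on the right. The marker mean is 13.81 on knockout array 1 and 14.15 on wild-type array 1 and at most 10.04 elsewhere, Hoxd9, Hoxd8, Hoxb6, Hoxb4 and Hoxc10 are highest on the same 2 arrays, and Hoxb13, Hoxd13 and Hoxa9 are not.

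Of the genes of groups 9 to 13 above background, those other than Hoxc9 and Hoxd9 did not have this pattern. Hoxc9 read 5.91, 5.50, 5.64 and 5.67 on the knockout arrays, and 5.67, 5.50, 5.13 and 5.28 on the wild-type arrays. Its log2 fold change of 0.29 (adjusted p = 0.450 by limma) was the highest of any Hox probe set. It was 0.28 without knockout array 1 and wild-type array 1. Hoxa9 read 10.87, 10.96, 10.89 and 11.11 on the knockout arrays, and 10.84, 11.03, 11.03 and 11.18 on the wild-type arrays. Hoxa10, whose loss in mice alters the anterior lobe, read 9.97, 10.37, 10.21 and 9.95 on the knockout arrays, and 9.79, 9.91, 10.26 and 9.86 on the wild-type arrays, a log2 fold change of 0.17 (interval -0.12 to 0.46, adjusted p = 0.622). Hoxa11 read 8.25, 7.42, 7.77 and 7.80 on the knockout arrays and 7.67, 7.75, 7.70 and 7.79 on the wild-type arrays, with knockout array 1 alone set high. Hoxd10 was likewise highest on knockout array 1 only, at 9.86, with 9.42 to 9.51 on the other knockout arrays and 9.39 to 9.63 on the wild-type arrays. Over the brightest probe sets above background, the highest minus lowest value over 8 arrays had a median of 0.47 in groups 9 to 13 (12 genes), 1.18 in groups 4 to 8 (8 genes) and 0.75 in groups 1 to 3 (3 genes).
Hoxa11os, the antisense transcript of Hoxa11, is not a member, but it lies in the Hoxa cluster and read 10.31, 10.10, 10.67 and 10.40 on the knockout arrays, against 10.47, 10.78, 10.70 and 10.76 on the wild-type arrays (log2 fold change -0.31, unadjusted p = 0.0453, adjusted p = 0.380 by limma).

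The partners and upstream regulators of Hox genes were read from lists, and no gene of these lists passed an adjusted p of 0.05. Their counts at an unadjusted p under 0.05 stand beside 7.34% of all probe sets lower and 5.46% higher, and with so few members nothing is read from them. Of 9 TALE cofactors, which bind DNA together with Hox proteins, 8 were measured, and the median log2 fold change was 0.073. At an unadjusted p under 0.05, 0 were lower and 1 was higher, Pbx4, at 6.79 to 6.83 on the knockout arrays and 6.41 to 6.74 on the wild-type arrays (log2 fold change 0.22, adjusted p = 0.349). Of 21 Cdx factors and chromatin regulators of Hox genes, 19 were measured and 0 were lower or higher at an unadjusted p under 0.05. Of 12 genes of retinoic acid handling, the signal that opens the 3′ Hox genes in the embryo, 11 were measured, and 1 was higher at that level, the receptor gene Rarb. Rarb read 7.65, 7.93, 7.29 and 7.58 on the knockout arrays, and 6.73, 6.87, 6.72 and 7.34 on the wild-type arrays (log2 fold change 0.70, adjusted p = 0.247).
Of 12 signals and factors listed for the urogenital sinus and its mesenchyme, all measured, 1 was lower and 2 were higher at an unadjusted p under 0.05. The shares of all probe sets, 7.34% lower and 5.46% higher, stand beside the counts of this list and the next. Bmp7, a secreted signal that restrains ductal branching, read 10.99, 10.90, 11.07 and 11.20 on the knockout arrays, and 11.65, 11.75, 11.51 and 11.56 on the wild-type arrays, with no overlap (log2 fold change -0.58, adjusted p = 0.0919). The higher pair were Shh, the hedgehog ligand (log2 fold change 0.61, adjusted p = 0.221), and Wnt5a, a Wnt ligand (0.54, adjusted p = 0.257). Of 11 transcription factors of prostate epithelium, 8 were measured, with Sox9 lower (log2 fold change -0.67, adjusted p = 0.303; -0.36 on the 6 arrays other than knockout array 1 and wild-type array 1) and Elf3 higher (0.22, adjusted p = 0.376) at an unadjusted p under 0.05.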

How the data were processed

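Expression was measured on Affymetrix Mouse Genome 430 2.0 arrays, 4 Olfm4 knockout and 4 wild-type. The deposited values are log2 intensities that the authors made with RMA, which corrects background, quantile-normalizes and summarises probes, so differences shared by a whole array are removed; the sources used here give no version of it, and detection calls were not used. The labels name Trizol and the methods an RNeasy kit for the RNA, and the methods speak of 5 mice where 4 arrays per genotype were analysed here. If arrays share a source, p-values measure a technical spread only. The 64 control probe sets were left out. Of 45037 probe sets, 34945 had 1 gene symbol, 932 several and 9160 none. All 33 Hox symbols matched RefSeq, whose GRCm38.p6 tables gave neighbours and promoters. A gene was represented by its probe set with the highest mean.

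The 2-sided test of genotype came from limma 3.58.1 (lmFit, eBayes; R 4.3.3) in a model that also held the array day, with Benjamini-Hochberg adjustment over all 45037 probe sets. The fit was checked on simulated data with independent normal noise and no outlying arrays. No Hox result rests on that check. The methods name an analysis of variance with no covariate, which was run as an alternative together with other normalizations, filters, blocks and left-out arrays. Replicate numbers were not treated as pairs. Single values also had an exact permutation test over arrays. The members and lists were chosen with earlier results of these data known. Given in full by rule were the brightest probe sets of paralog group 13 and every Hox probe set at an unadjusted p under 0.05; the other genes were named after their values were seen. The number of arrays limits the precision. The authors' comparison of older mice is not analysed here.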

Additional observations from a re-analysis of the deposited data

Results flagged for a closer look

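Each of the 48 Hox probe sets was tested in each genotype for 1 array far from the other 3 (Dixon's test at the 95% level, 96 tests). At this level chance alone flags about 1 test in 20. The 5 flags found among the 96 tests are close to that share, so nothing is read from their number. Hoxb2 read 5.82 on knockout array 1, with the next knockout array at 5.07, and Hoxd3 read 5.72 on the same array, with the next at 4.19. Hoxc8 read 4.62 on wild-type array 1, with the next wild-type array at 2.79. These 3 values are on the arrays with the most seminal vesicle transcript, whose part in them was not tested. Hoxa3 (1427433_s_at) read 7.37 on wild-type array 2, with the next at 7.06, and Hoxc6 (1427454_at) read 6.09 on wild-type array 3, with the next at 5.73.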

How the results depend on the processing

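The count of Hox probe sets past an adjusted p of 0.05 was 0 in every alternative run, and the median log2 fold change over the 33 genes stayed below 0, at -0.090 to -0.030 when 1 array was left out. The number at an unadjusted p under 0.05 is small and moved easily. Against 2 lower, it was 1 without array day, after centring, quantile normalization, cyclic loess or a mean of at least 5, 0 with a mean of at least 7, 4 with the methods' analysis of variance or array weights, 5 without knockout array 1 and wild-type array 1, and 0 to 5 when 1 array was left out (5 without knockout array 1, 0 without knockout array 2 or knockout array 4). Against 0 higher, it was 1 with the analysis of variance or centring and 0 to 3 when 1 array was left out (3 without wild-type array 4). With the replicate number as a block 1 was higher, and with both block and array day 4 were lower and 1 was higher; deviations of same-numbered arrays correlated at 0.34, 0.17, 0.043 and -0.0056, so the numbers were not taken as pairs. Near 0, directions turned for Hoxb13 on day 1 alone (0.0023), Hoxa13 on day 2 alone (-0.043), Hoxc13 after centring (0.0073) and Hoxd13 as the mean of its probe sets (0.0029). Leaving out 1 array gave -0.0072 to 0.10 for Hoxa13, -0.17 to -0.070 for Hoxb13, -0.075 to 0.032 for Hoxc13 and -0.12 to 0.0023 for Hoxd13. Hoxb5 stayed lower in every alternative run, at -0.86 on day 1 alone, -0.22 on day 2 alone, -0.78 without knockout array 1 and -0.39 without knockout array 3. So did Hoxa5 (1448926_at), at -0.46 to -0.29 with 1 array left out, -0.25 on day 1, -0.47 on day 2 and -0.16 as the mean of its probe sets. In alternatives chosen after seeing the data, Hoxb4 (1460379_at) was 0.20 on day 2 alone, Hoxb6 was 0.75 on day 2 alone and -0.77 to 0.073 with 1 array left out, and the Hoxb genes with a lower mean numbered 7 to 9 with 1 array left out and 5 with a mean of at least 7, where fewer genes are tested. A background level of 7 left 17 Hox probe sets above it. Below background the values have little room to fall, though some still rose on single arrays. The highest minus lowest value there was 2.34 for Hoxc10, 2.08 for Hoxc8 and 1.73 for Hoxd3.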
